A study of Mus musculus with 6 samples.

Results

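The 10 genes described here are noncoding host genes of small nucleolar RNAs (snoRNAs): GAS5, SNHG1, SNHG5, SNHG6, SNHG7, SNHG8, SNHG12, SNHG15, SNHG16 and SNHG29. They were chosen by name, with earlier results of these data known, from the 39234 genes of the deposited table. Counts of them called lower therefore describe these genes and are not a test of the set. All 10 were among the 18188 genes with enough counts to be tested. The RNA came from HK-2, a line of human kidney proximal tubule cells that was immortalized, in 3 control libraries and 3 libraries with overexpression of USAG-1, a secreted antagonist of BMP and Wnt signalling. The labels give the wild-type genotype for both groups and do not say what the control cells received; the study's methods describe transient transfection of USAG-1 plasmids and state that the line was not authenticated by STR typing. By organism the labels say mouse, although HK-2 is human and the genes carry human identifiers, and they describe both selection of polyadenylated RNA and removal of ribosomal RNA. Nothing in them says that the libraries came from separate cultures, so p-values measure the spread between these samples, which may be technical.

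A snoRNA host gene is transcribed as a long precursor whose introns hold snoRNAs. Splicing frees the introns, from which the snoRNAs are trimmed, and snoRNAs of the C/D box and H/ACA box classes then guide methylation and pseudouridylation of ribosomal RNA. What is left is the spliced exon RNA, which in these 10 genes is not known for a conserved protein. Several of these spliced RNAs begin with a terminal oligopyrimidine (TOP) sequence, as messenger RNAs of ribosomal proteins do, and are degraded by nonsense-mediated decay when they are translated. A level given here is the level of the spliced or unspliced host RNA as counted, and says nothing of the mature snoRNA.

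Counted reads per library were 41236194, 48699471 and 44611384 in control replicates 1, 2 and 3, and 45448720, 43837891 and 42782931 in USAG-1 overexpression replicates 1, 2 and 3. The 10 host genes together made up 0.0713% ± 0.00832 (SD, n = 3) of all control counts and 0.0569% ± 0.00441 (SD, n = 3) of those with USAG-1 overexpression. Levels are in CPM, counts scaled to a common library size with TMM factors. Control replicate 3 stood apart within its group. Comparing its counts with those of control replicates 1 and 2 gave a chi-square of 42.3 and 42.7 per degree of freedom, against 6.52 between control replicates 1 and 2 and 7.66 to 8.35 between the USAG-1 overexpression libraries. Results are therefore given with and without this library.

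SOSTDC1, the gene that encodes USAG-1, checks the group labels. Its level was 1.89, 1.62 and 1.41 CPM in control and 111, 89.5 and 103 CPM with USAG-1 overexpression, which is 5.94 on the log2 scale (edgeR, adjusted p = 6.96e-07). Adjusted p-values are from the quasi-likelihood test of edgeR throughout, unless another tool is named. By this gene every library matched its label as control or USAG-1 overexpression.

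All 10 host genes had a negative log2 fold change in USAG-1-overexpressing cells, and 5 of them were called lower at an adjusted p under 0.05: SNHG5, SNHG6, SNHG7, SNHG15 and SNHG29. None was called higher by edgeR, DESeq2 or limma-voom, and none had a positive value. Among all genes tested, 6.91% were called lower and 8.95% higher. The median log2 fold change of the 10 genes was -0.33, beside -0.02 over all genes tested, of which 52.5% had a negative value. In 7 of the 10 every USAG-1 overexpression library lay below every control library, as it did in 18.1% of all genes tested. Summed over the 10 genes, the level was 756, 746 and 645 CPM in the control libraries and 586, 520 and 592 CPM in the USAG-1 overexpression libraries. Both groups were thus separate in the sum, with control replicate 3 the lowest control and USAG-1 overexpression replicate 2 the lowest of all.

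The number of host genes called depended on single libraries. With control replicate 3 left out, 9 of the 10 were called lower, all but SNHG16, and the median log2 fold change was -0.44. In that comparison 11.2% of all 18866 genes tested were called lower, and 2985 genes were called higher. Leaving out control replicate 1, control replicate 2, USAG-1 overexpression replicate 1 or USAG-1 overexpression replicate 2 left 2 called genes, SNHG5 and SNHG15. Without USAG-1 overexpression replicate 3 there were 3, SNHG5, SNHG7 and SNHG15. Fewer genes were called over the whole table too: the share called lower was 4.41% and 3.75% without control replicates 1 and 2, and 3.16%, 2.67% and 3.08% without USAG-1 overexpression replicates 1, 2 and 3. The log2 fold change of each of the 10 genes was negative in each of these 6 fits.

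**Figure D1:**
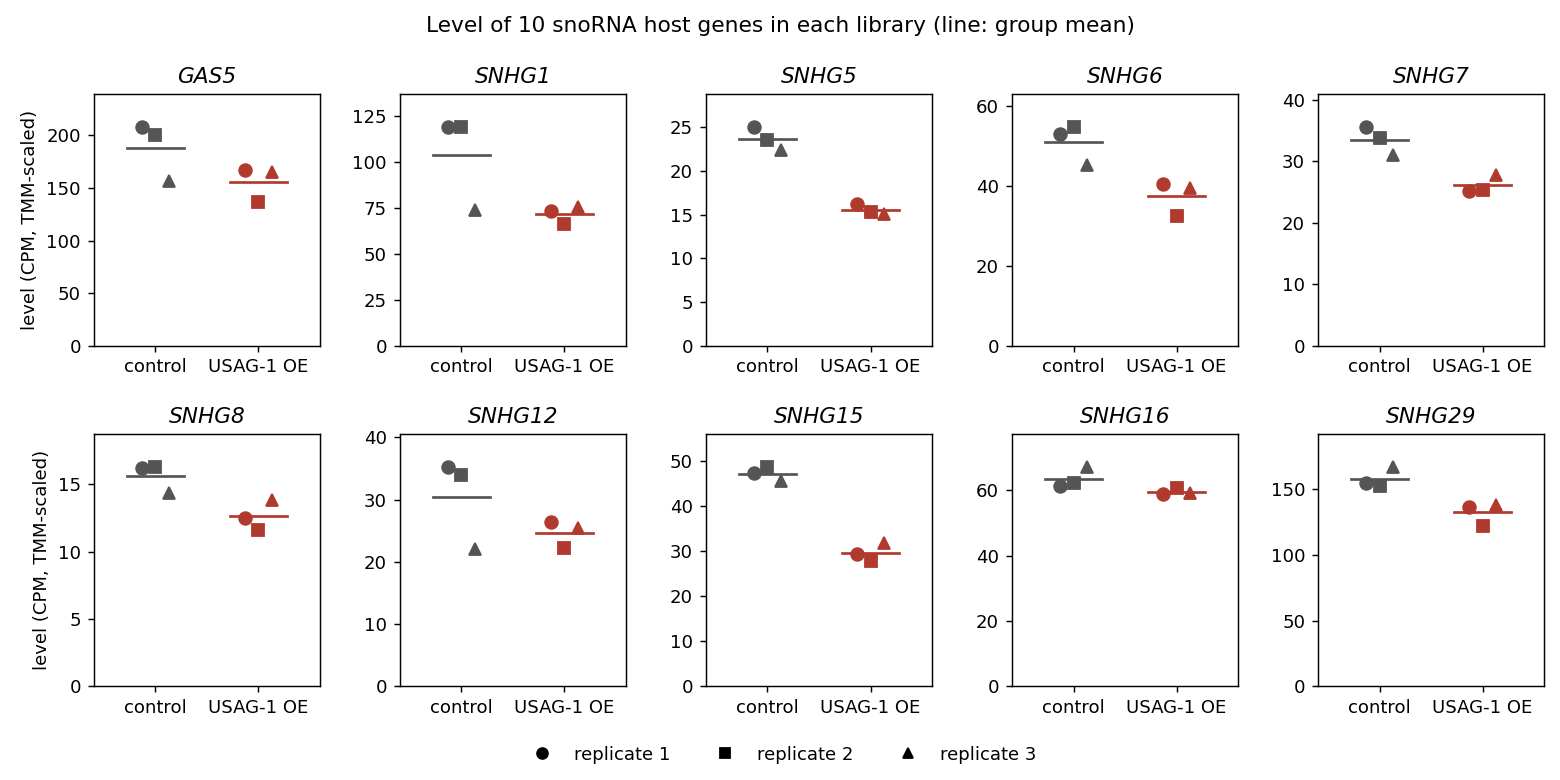
Level of each of the 10 snoRNA host genes (vertical axis, CPM after TMM scaling, from 0) in the 3 control and the 3 USAG-1 overexpression (OE) libraries; symbols mark the replicate number and lines the group means. The groups overlap in GAS5, SNHG1 and SNHG12, where control replicate 3 lies at 156, 74.1 and 22.1 CPM, and are separate in the other 7 genes.

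The first set are hosts of C/D box snoRNAs. SNHG5 (ENSG00000203875; chromosome 6, 85650491 to 85678754, minus strand), host of the SNORD50 snoRNAs, had 25.1, 23.5 and 22.4 CPM in control replicates 1, 2 and 3 and 16.2, 15.3 and 15.1 CPM in USAG-1 overexpression replicates 1, 2 and 3. The lowest control library was above the highest USAG-1 overexpression library, and within each group the values lay close together. SNHG5 fell by 34.4% (log2 fold change -0.61, standard error 0.08, 95% confidence interval -0.80 to -0.42, adjusted p = 0.00281). It was called in each of the 6 fits that left out 1 library, with log2 fold changes from -0.64 to -0.56.

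SNHG1 (ENSG00000255717; chromosome 11, 62851978 to 62855932, minus strand) carries a cluster of C/D box snoRNAs, and its spliced RNA is short-lived. Its level was 119 CPM in control replicate 1, 120 CPM in control replicate 2 and 74.1 CPM in control replicate 3, against 73.6, 66.3 and 75.8 CPM in the USAG-1 overexpression libraries. Control replicates 1 and 2 were far above all other libraries, and control replicate 3 lay among those with USAG-1 overexpression. With all libraries the log2 fold change was -0.54 (standard error 0.17, 95% confidence interval -0.93 to -0.15) and SNHG1 was not called (adjusted p = 0.068). With control replicate 3 left out it was -0.72 (standard error 0.06, adjusted p = 6.25e-05), the largest change of the 10 genes in that fit. On all libraries DESeq2's Wald test called it (adjusted p = 0.00647), whereas no other alternative on all libraries, with edgeR or limma-voom, did (adjusted p from 0.0529 to 0.13). Over all alternatives run the adjusted p was between 6.25e-05 and 0.222.

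GAS5 (ENSG00000234741; chromosome 1, 173858559 to 173868882, minus strand) was named for its accumulation in growth-arrested cells and is a textbook case of a TOP-containing RNA removed by nonsense-mediated decay. It had 208, 200 and 156 CPM in the control libraries and 167, 136 and 165 CPM in the USAG-1 overexpression libraries. Control replicate 3 was below 2 of the 3 USAG-1 overexpression libraries, so the groups overlapped. The log2 fold change was -0.27 (standard error 0.12, 95% confidence interval -0.55 to 0.01, adjusted p = 0.171), and without control replicate 3 it was -0.38 (standard error 0.08, adjusted p = 0.00744). Leaving out USAG-1 overexpression replicate 2 or control replicate 1 moved it the other way, to -0.18 and -0.19. The adjusted p of GAS5 over all alternatives was between 0.00744 and 0.448.

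SNHG6 (ENSG00000245910; chromosome 8, 66920561 to 66926398, minus strand), host of SNORD87, had 53.2, 55.0 and 45.3 CPM in the control libraries and 40.6, 32.4 and 39.7 CPM with USAG-1 overexpression. Control replicate 3 was again the lowest control and USAG-1 overexpression replicate 2 the lowest library, without overlap. SNHG6 fell by 26.6% (log2 fold change -0.45, standard error 0.11, 95% confidence interval -0.69 to -0.20, adjusted p = 0.028). The call was lost when any library other than control replicate 3 was left out, with adjusted p from 0.0617 to 0.102 and log2 fold changes from -0.50 to -0.35. It was also lost with library sizes alone as scaling (adjusted p = 0.0501) and with no filter on low counts (adjusted p = 0.0564). Its range over all alternatives was 0.00167 to 0.102.

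SNHG29 (ENSG00000175061; chromosome 17, 16438767 to 16473103, plus strand), host of SNORD49 and SNORD65 snoRNAs, differed from the genes above in its controls. It had 155, 153 and 167 CPM in the control libraries, with control replicate 3 the highest, and 137, 122 and 138 CPM in the USAG-1 overexpression libraries. The groups did not overlap. SNHG29 fell by 16.3% (log2 fold change -0.26, standard error 0.07, 95% confidence interval -0.41 to -0.10, adjusted p = 0.0399). It was still called without control replicate 3, at a log2 fold change of -0.21 (adjusted p = 0.023). Leaving out any other library ended the call, with adjusted p from 0.0794 to 0.159, as did testing with no filter on low counts (adjusted p = 0.0746). The lowest adjusted p of any alternative was 0.00729, with DESeq2's Wald test.

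SNHG16 (ENSG00000163597; chromosome 17, 76557727 to 76565357, plus strand), host of the SNORD1 snoRNAs, had 61.2, 62.3 and 67.1 CPM in the control libraries and 58.9, 60.8 and 59.1 CPM in the USAG-1 overexpression libraries. The groups were separate by a narrow margin, and the highest library was control replicate 3. The log2 fold change of -0.09 (standard error 0.06, 95% confidence interval -0.23 to 0.05) was not called (adjusted p = 0.354), nor was SNHG16 called under any of the alternatives run. Its log2 fold change was -0.05 without control replicate 3.

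The second set are hosts of H/ACA box snoRNAs. SNHG15 (ENSG00000232956; chromosome 7, 44983019 to 44986961, minus strand), host of SNORA9 and known for a short-lived RNA, had 47.4, 48.7 and 45.6 CPM in the control libraries and 29.4, 27.9 and 31.8 CPM in the USAG-1 overexpression libraries. Here control replicate 3 was close to the other controls, and the gap between the groups was wider than the range within either. SNHG15 fell by 37.2% (log2 fold change -0.67, standard error 0.07, 95% confidence interval -0.84 to -0.51, adjusted p = 0.00113), the largest change of the 10 with all libraries. It ranked 188 by p among the 18188 genes tested. In the 6 fits that left out 1 library the log2 fold change ran from -0.72 to -0.62, called each time.

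SNHG7 (ENSG00000233016; chromosome 9, 136721366 to 136728184, minus strand), host of the SNORA17 snoRNAs, had 35.7, 33.8 and 31.0 CPM in the control libraries and 25.2, 25.3 and 27.8 CPM with USAG-1 overexpression. The groups did not overlap, and control replicate 3 was the lowest control. SNHG7 fell by 22.0% (log2 fold change -0.36, standard error 0.08, 95% confidence interval -0.54 to -0.17, adjusted p = 0.0212). Its call was lost without control replicate 1, control replicate 2, USAG-1 overexpression replicate 1 or USAG-1 overexpression replicate 2 (adjusted p from 0.0701 to 0.105, log2 fold changes from -0.35 to -0.31). The call of SNHG7 was also lost with a replicate block (log2 fold change -0.36, adjusted p = 0.0523).

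SNHG8 (ENSG00000269893; chromosome 4, 118278703 to 118285316, plus strand), host of SNORA24, had 16.2, 16.3 and 14.4 CPM in the control libraries and 12.5, 11.6 and 13.8 CPM in the USAG-1 overexpression libraries. The groups were separate, with control replicate 3 and USAG-1 overexpression replicate 3 nearest to each other. The log2 fold change was -0.30 (standard error 0.11, 95% confidence interval -0.55 to -0.06, adjusted p = 0.094), not called with all libraries, and -0.35 (adjusted p = 0.0346) without control replicate 3. Over the alternatives its adjusted p lay between 0.0346 and 0.277.

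SNHG12 (ENSG00000197989; chromosome 1, 28578538 to 28582986, minus strand) holds snoRNAs of both classes. It had 35.2, 34.0 and 22.1 CPM in the control libraries and 26.5, 22.2 and 25.4 CPM in the USAG-1 overexpression libraries. As in SNHG1, control replicates 1 and 2 were the highest libraries, while control replicate 3 was the lowest of all 6. With all libraries SNHG12 was not called (log2 fold change -0.30, standard error 0.17, 95% confidence interval -0.69 to 0.08, adjusted p = 0.272). The log2 fold change was -0.48 without control replicate 3 (standard error 0.08, adjusted p = 0.00274), but -0.18 without control replicate 1 and -0.22 without control replicate 2. Over all alternatives the adjusted p ran from 0.00274 to 0.573.

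**Figure D2:**
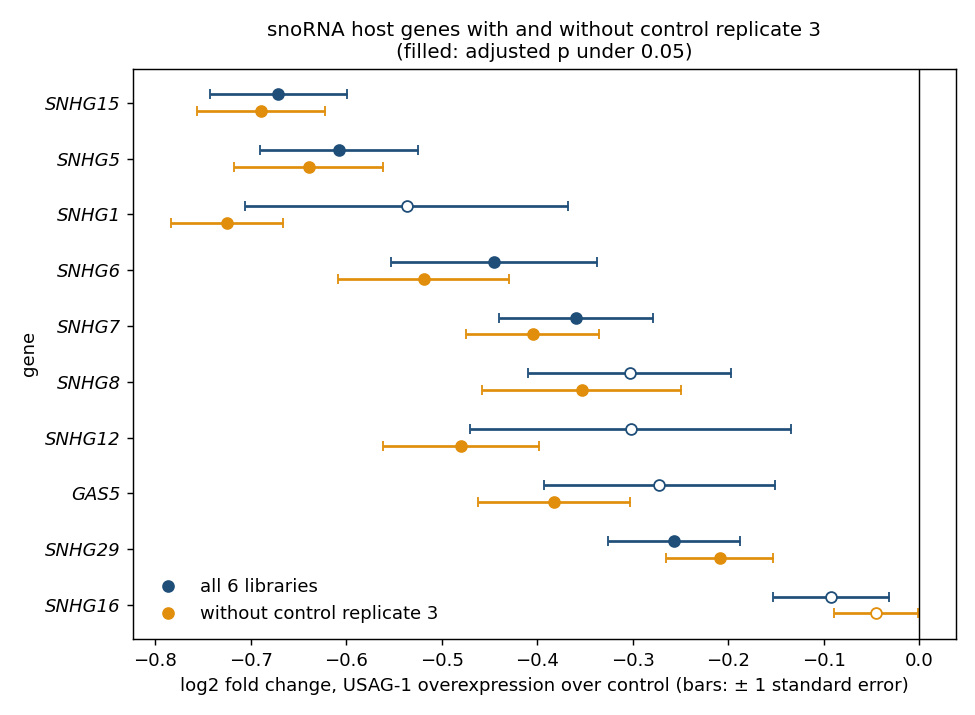
Log2 fold change of USAG-1 overexpression over control (horizontal axis, bars ± 1 standard error) for the 10 snoRNA host genes (vertical axis), with all 6 libraries and without control replicate 3; filled points have an adjusted p under 0.05. With that library left out, 9 of 10 genes are called in place of 5, and SNHG1 moves from -0.54 to -0.72.

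Control replicate 3 set the 10 genes apart from each other. Relative to the mean of control replicates 1 and 2, its level was 0.621 for SNHG1, 0.639 for SNHG12 and 0.766 for GAS5. For SNHG5, SNHG6, SNHG7, SNHG8 and SNHG15 the ratio was between 0.837 and 0.949. It was 1.09 for SNHG16 and 1.09 for SNHG29. Why this library differs was not tested.

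Within the deposited annotation, 24 entries of snoRNA genes lie within 9 of the host genes, 15 of the C/D box and 9 of the H/ACA box class. SNORA16A in SNHG12 and SNORA17B in SNHG7 are each entered 2 times at nearly the same position, so there are fewer snoRNAs than entries. SNHG1 holds 7 of the entries, SNHG12 5, SNHG7 and SNHG16 3 each, and SNHG29 2. SNHG5, SNHG6, SNHG8 and SNHG15 hold 1 each. The snoRNAs of GAS5 were not analysed here. Of the 24, 17 had exactly 1 count in every library, and so did 353 genes of the whole table, with a median genomic span of 93 bases. A value of 1 in each of 6 libraries cannot be read as a measured level. Only SNORD99, within SNHG12, passed the filter, with 10, 13 and 10 counts in control and 13, 3 and 14 counts in USAG-1 overexpression libraries (log2 fold change -0.12, adjusted p = 0.921). Mature snoRNAs carry no poly(A) tail, and their levels are not given by these counts.

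Some host genes overlap genes on the opposite strand. The library protocol keeps strand, but how reads were counted is not given in the sources used here, so the values of overlapping genes are uncertain. GAS5 overlaps ZBTB37, a zinc finger gene (30.1, 33.4 and 25.0 CPM in control, 26.7, 25.1 and 25.7 CPM with USAG-1 overexpression, log2 fold change -0.19, adjusted p = 0.272), and the low GAS5-AS1. In ZBTB37 too, control replicate 3 was the lowest control, and without it ZBTB37 was called lower, at a log2 fold change of -0.29. SNHG12 shares its last bases with TRNAU1AP, a factor of selenocysteine incorporation (log2 fold change -0.25, adjusted p = 0.101). SNHG8 overlaps PRSS12, the protease neurotrypsin (0.08, adjusted p = 0.63), SNHG7 overlaps DIPK1B (0.60, adjusted p = 0.235) and SNHG29 overlaps LRRC75A (-0.32, adjusted p = 0.674). None of these overlapping genes was called with all libraries.

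Among the nearest tested genes on either side, 4 were called by edgeR with all libraries, and DESeq2's Wald test also called SLC3A2 and AGPAT2. MYO1G, a myosin of blood cells that lies 3931 bases from SNHG15, fell by 2.46 on the log2 scale (adjusted p = 0.00472), from 392, 386 and 480 counts in control to 110, 32 and 88 counts with USAG-1 overexpression. TRPV2, a cation channel gene 1764 bases from SNHG29, fell by 2.38 (adjusted p = 0.0101), a call lost without USAG-1 overexpression replicate 2. RHBDF2, an inactive rhomboid protease gene 55937 bases from SNHG16, fell by 0.60 (adjusted p = 0.0205), lost without control replicate 2, USAG-1 overexpression replicate 1 or USAG-1 overexpression replicate 3. The pseudogene CEP170P1, 182274 bases from SNHG8, rose by 0.92 (adjusted p = 0.0189), lost without control replicate 1, USAG-1 overexpression replicate 1 or USAG-1 overexpression replicate 2. SLC3A2, the heavy chain of several amino acid transporters, starts 72 bases from SNHG1 on the other strand and was not called by edgeR with all libraries (log2 fold change -0.25, adjusted p = 0.0921); it was called lower without control replicate 3, at -0.14.

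The other noncoding host genes were 20 in number, all tested. Of these 3 were called lower and 0 higher by edgeR with all libraries and the main settings, 17 had a negative log2 fold change, and the median was -0.31; 9 of the 20 had an unadjusted p under 0.05. SNHG14, named after its value was seen (log2 fold change 0.33, adjusted p = 0.0509 by edgeR), was called higher by DESeq2's Wald test and limma-voom. So it was by edgeR with mitochondrially encoded genes left out, with at least 10 counts in every library, and without control replicate 1 or 3. Their summed level was 431, 426 and 364 CPM in control and 339, 315 and 338 CPM in USAG-1 overexpression libraries, which again left control replicate 3 lowest among the controls. EPB41L4A-AS1, host of SNORA13, had 14.4, 14.6 and 12.3 CPM in control and 7.54, 8.93 and 8.60 CPM with USAG-1 overexpression (log2 fold change -0.72, adjusted p = 0.00655), called in all 6 fits that left out a library. SNHG32, host of SNORD48 and SNORD52, had 82.9, 82.9 and 89.8 CPM in control and 68.5, 63.7 and 66.5 CPM with USAG-1 overexpression (log2 fold change -0.36, adjusted p = 0.00735), a call lost without USAG-1 overexpression replicate 2. SNHG3, host of SNORA73, had 94.8, 94.9 and 57.6 CPM in control and 44.8, 40.3 and 43.6 CPM with USAG-1 overexpression (log2 fold change -0.94, adjusted p = 0.0102). It lies within RCC1 on the same strand, so strand does not separate their reads, and its values are uncertain. RCC1 was not called with all libraries (log2 fold change 0.04, adjusted p = 0.792). In SNHG3 control replicate 3 lay between the other controls and the USAG-1 overexpression libraries, and its call was lost without USAG-1 overexpression replicate 2 or 3. This list had 6 genes called lower and 1 higher without control replicate 3, against 1 and 2 called lower when USAG-1 overexpression replicates 2 and 3 were left out.

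Protein-coding genes can host snoRNAs as well, and outside the ribosomal proteins 22 such genes were tested. Of these 4 were called lower and 1 higher, 11 lay on each side of 0, and the median was -0.02. TPT1, which encodes a translationally controlled tumor protein from a TOP messenger RNA, fell by 0.50 on the log2 scale (adjusted p = 0.00123), and HSPA8, the constitutive HSC70 chaperone, fell by 0.54 (adjusted p = 0.00254), both called in all 6 fits that left out a library. EEF1B2, a translation elongation factor subunit, fell by 0.31 (adjusted p = 0.0363) and EIF4A2, an RNA helicase of translation initiation, by 0.42 (adjusted p = 0.0464), whereas the elongation factor EEF2 rose by 0.29 (adjusted p = 0.0114). The call of EEF2 was lost without control replicate 2 or USAG-1 overexpression replicate 2 or 3, that of EEF1B2 without any library but control replicates 1 and 3, and that of EIF4A2 without any library but control replicate 3. EIF4A2 was also not called with library sizes alone or limma-voom. In the fit without control replicate 3, 7 genes of the list were called lower and 6 higher, with a median of 0.02.

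Proteins of the snoRNP, the particle in which a snoRNA works, were given by 8 core genes and 18 genes of assembly and processing. No core gene was called by edgeR with TMM scaling and its own filter (1 had an unadjusted p under 0.05), nor by limma-voom. NOP56 was called lower by DESeq2's Wald test, and by edgeR with library sizes alone or with at least 10 counts in every library. The list had 5 negative values of 8, and the median was -0.10. NOP56, a core protein of C/D box particles, had a log2 fold change of -0.17 (adjusted p = 0.058), and NHP2, a core protein of H/ACA box particles, one of -0.29 (adjusted p = 0.166) that was -0.10 without control replicate 3. In the fit without control replicate 3, 2 core genes were called lower and 1 higher, and the core median was -0.04. Among assembly and processing genes 3 were called lower and 2 higher, with a median of 0.03; without control replicate 3 these were 4 and 5, with a median of 0.08. NOPCHAP1, an assembly chaperone of the C/D box core, fell by 0.81 on the log2 scale (adjusted p = 0.00516), called in all 6 fits that left out a library. PARN, a deadenylase that trims H/ACA box snoRNAs, rose by 0.39 (adjusted p = 0.0141), lost without USAG-1 overexpression replicate 1 or 2. The calls of SHQ1 (log2 fold change -0.32), PIH1D1 (-0.32) and the exonuclease XRN1 (0.37) were lost without any library but control replicate 3, and further that of PIH1D1 with limma-voom, that of XRN1 with library sizes alone and that of SHQ1 with the replicate block.

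Nonsense-mediated decay was covered by 17 genes, of which 3 were called higher and 2 lower, with a median of 0.03. RBM8A, of the exon junction complex, fell by 0.28 on the log2 scale (adjusted p = 0.0243), and its partner MAGOH by 0.23 (adjusted p = 0.047). SMG5, which acts in the dephosphorylation of UPF1, rose by 0.31 (adjusted p = 0.0396), and the core factor UPF2 rose by 0.47 (adjusted p = 0.04). UPF1, the helicase of the pathway, had a log2 fold change of 0.05 (adjusted p = 0.624); it was named after its value was seen. MAGOH and UPF2 were also not called with library sizes alone, nor MAGOH with limma-voom, with mitochondrially encoded genes left out or with the replicate block. All 5 calls rested on single libraries: without control replicate 3 the list had 6 called higher and 3 lower, and without any library of the USAG-1 overexpression group it had 0 of either. Leaving out control replicate 1 left 1 called higher and 0 lower, and leaving out control replicate 2 left 0 higher and 1 lower.

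Regulators of TOP messenger RNAs numbered 12, with a median of 0.09, 2 called higher and 0 lower by edgeR (4 of the 12 had an unadjusted p under 0.05, and DESeq2 and limma-voom called 0 lower). With control replicate 3 left out 4 were called higher and 0 lower, and in each of the other 5 fits that left out a library 0 of either. The initiation factor EIF4G1 rose by 0.23 on the log2 scale (adjusted p = 0.0186) and the kinase MTOR by 0.24 (adjusted p = 0.0348), both lost without any library but control replicate 3 and both lost with the replicate block. The 79 cytosolic ribosomal protein genes, whose messenger RNAs have TOP starts, had a median log2 fold change of -0.28, with 76 negative, 29 called lower and 0 higher. RPS7 fell by 0.46 (adjusted p = 0.00296) and RPS15A by 0.47 (adjusted p = 0.00463), called in all 6 fits that left out a library. The number called lower was 46 without control replicate 3 (1 was called higher, and the median was -0.20), 22 and 12 without control replicates 1 and 2, and 4, 2 and 13 without USAG-1 overexpression replicates 1, 2 and 3. In their summed level control replicate 3 was the highest library, at 43914 CPM against 34226 and 34887 CPM in control replicates 1 and 2, and 31435, 31116 and 33123 CPM in the USAG-1 overexpression libraries. In this library the ribosomal protein sum was thus high while the sum of the 10 host genes was the lowest among controls.

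**Figure D3:**
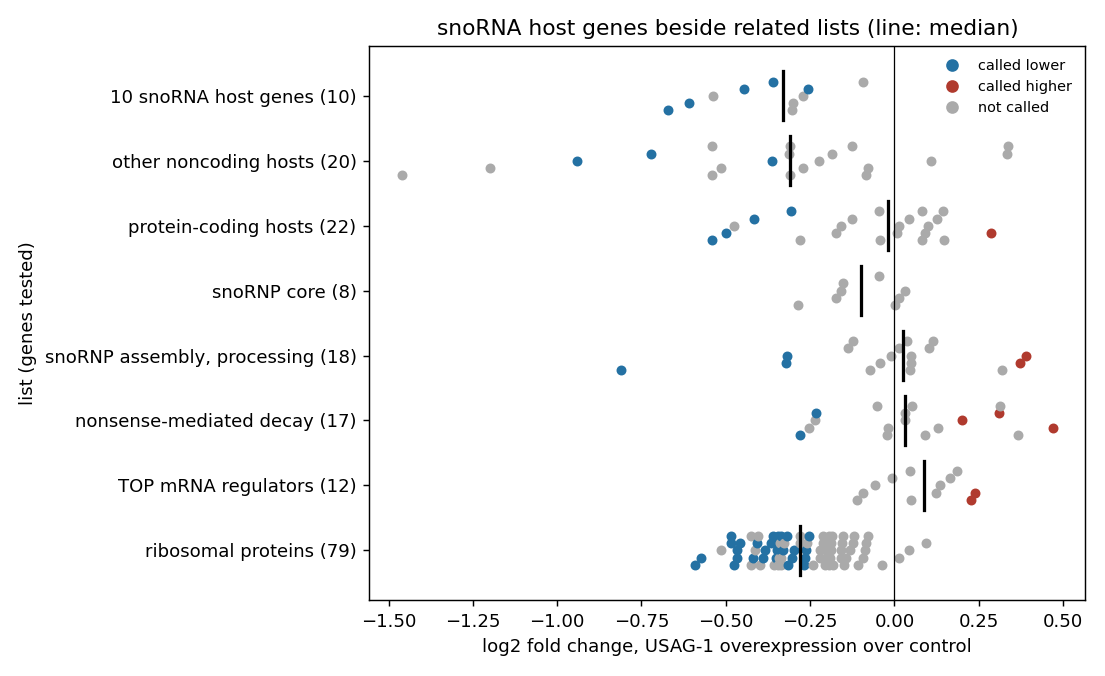
Log2 fold change of USAG-1 overexpression over control (horizontal axis) of each tested gene in the 10 snoRNA host genes and 7 related lists (vertical axis, genes tested in brackets); vertical lines are list medians and colours give the call at an adjusted p under 0.05. The medians of the 10 host genes (-0.33), the other noncoding hosts (-0.31) and ribosomal proteins (-0.28) lie to the left of those of the other 5 lists (-0.10 to 0.09).

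The profile over the 6 libraries was compared between genes on centred log2 CPM. Among the 10 host genes the root mean square difference from their mean profile was smallest for SNHG7, at 0.05, and SNHG8, at 0.05, and highest for SNHG16, at 0.20, followed by SNHG1, at 0.17. Of 11279 other tested genes with at least 5 CPM on average, the 5 nearest to that mean profile were HOXA9 (0.03), a homeobox gene, MAT2A (0.04), which makes S-adenosylmethionine, AGPAT4 (0.04), an acyltransferase, B3GNTL1 (0.04) and RASAL1 (0.04), a RAS GTPase activator. HOXA9 had 72.5, 72.3 and 61.9 CPM in control and 53.9, 48.1 and 52.1 CPM in USAG-1 overexpression libraries. It shows the mean profile, with control replicate 3 the lowest control and USAG-1 overexpression replicate 2 the lowest of all libraries.

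Other measures moved with the groups. Mitochondrially encoded genes held 5.29% ± 0.426 (SD, n = 3) of the counts in control and 1.53% ± 0.0255 (SD, n = 3) in USAG-1 overexpression libraries. With these genes left out of the counts and library sizes, the same 5 host genes were called lower, beside 6.56% of all genes tested. The median of the 10 host genes was then -0.33. Of 18 markers of T and NK cells, 17 were called lower (15 to 17 in the fits that left out a library), and their summed level was 141, 133 and 151 CPM in control and 45.6, 36.0 and 34.3 CPM in USAG-1 overexpression libraries. The 1 marker not called was IL7R, at 21.9, 21.0 and 17.8 CPM in control and 27.6, 23.6 and 21.9 CPM with USAG-1 overexpression (adjusted p = 0.161). CD3E, a chain of the T cell receptor complex, had 5.37, 3.63 and 6.12 CPM in control and 0.849, 0.618 and 0.44 CPM with USAG-1 overexpression. None of the 18 was at 0 in every library, while GZMA and CD2 were at 0 in USAG-1 overexpression replicate 2, CD3D in replicate 1 and CD8B in replicate 3 of that group. GZMB (log2 fold change -4.31, adjusted p = 6.48e-05) and LCK (-2.51, adjusted p = 0.000163) had the smallest p of these markers. How these transcripts came to be in libraries labelled HK-2 was not tested. In such bulk libraries fewer cells of a type and less RNA per cell cannot be told apart either. The part of the T and NK cell markers in the levels of the 10 host genes was not tested.

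Of 12 B and myeloid cell markers, ITGAM and LYZ were called lower and CD68 higher; their sum was 127, 104 and 138 CPM in control and 157, 140 and 149 CPM in USAG-1 overexpression libraries. CD68, the most abundant, had 66.9, 62.7 and 92.3 CPM in control and 126, 110 and 113 CPM with USAG-1 overexpression (adjusted p = 0.0168), and its call was lost without any library but control replicate 3. ITGAM was called in all 6 fits that left out a library, and LYZ without control replicate 2 or 3. The list had 3 genes called lower and 1 higher without control replicate 3. LYZ was also not called with library sizes alone, with limma-voom or with no filter on low counts. CD79B, a component of the B cell receptor, was below 1 CPM in every library. The part of these markers in the host genes' levels was not tested either.

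Markers of the labelled cell type were partly absent. Of 11 proximal tubule markers 10 were measured, and SLC22A6 was not analysed here. LRP2, the endocytic receptor megalin, had 0 counts in all 6 libraries, where 3 counts would be 0.0608 to 0.0719 CPM; this limit covers counting error only. CUBN, AQP1, SLC34A1 and HNF4A were below 1 CPM in every library. GGT1, a brush border enzyme and the most abundant of the list, had 117, 112 and 85.1 CPM in control and 164, 137 and 158 CPM in USAG-1 overexpression libraries (log2 fold change 0.55, adjusted p = 0.0208), a call lost without USAG-1 overexpression replicate 1 or 3. Among 8 markers of cultured epithelium KRT8 was the most abundant, at 995, 971 and 1277 CPM in control and 1073, 1125 and 1102 CPM with USAG-1 overexpression, and CDH1 was below 1 CPM in every library. The renal transcription factor PAX8 rose by 0.26 on the log2 scale (adjusted p = 0.0114) and CDH2 by 0.28 (adjusted p = 0.0263). With control replicate 3 left out, 6 of the 7 tested were called higher, beside 2985 of all 18866 genes tested. Without control replicate 2 or any USAG-1 overexpression library 0 of the 7 were.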

How the data were processed

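RNA of 6 libraries of HK-2 cells was sequenced. The authors deposited 1 table of whole-number counts per gene, not normalized, although its name speaks of FPKM. The submitters' processing notes name cutadapt (1.9), FastQC and hg38; the aligner and the counting method are not given in the sources used here. Positions are as in the table.

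Genes were filtered with filterByExpr, scaled by TMM and tested with the quasi-likelihood test of edgeR (4.0.16) in R (4.3.3), without a replicate block. Benjamini-Hochberg adjustment covered the 18188 genes tested, and a call means an adjusted p under 0.05 at any fold. Dividing the size of the log2 fold change by the root of the F statistic gave the standard error. Log2 CPM used a prior count of 2. The members and lists were chosen with earlier results of these data known. Named genes were all members, SOSTDC1, the 2 genes of smallest p in each list, genes overlapping or next to a member, and the 5 genes nearest in profile; other names were chosen after values were seen.

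Alternatives were DESeq2 (1.42.0) size factors or its Wald test, limma (3.58.1) voom, library sizes alone, mitochondrially encoded genes left out, a replicate block, a minimum of 10 counts per library, testing without a filter, and each library left out. The code was tested on simulated data: fold sizes and signs were recovered, but a first criterion for the share of changed genes called was missed, since genes of low counts were called less often, and was then revised. False calls there exceeded the share that an adjusted p under 0.05 allows, by most with DESeq2, so calls here may hold more false ones than that threshold states. TOP sequences were not analysed here. Values of some listed genes are not reported here.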

Additional observations from a re-analysis of the deposited data

How the results depend on the processing

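Each of the 10 snoRNA host genes was tested under 14 alternatives, 140 values in all. None changed direction, and 117 kept their side of the threshold; 18 lost the call and 5 gained it. SNHG5 and SNHG15 were called in all 14. With no filter on low counts 3 host genes were called lower in place of 5, where 32507 genes were adjusted over and 2.67% of them were called lower, in place of 6.91%. The calls of EEF1B2, EIF4A2, SHQ1, XRN1, PIH1D1, SMG5, UPF2, MAGOH, EIF4G1, MTOR and CDH2 were lost in that fit as well. Leaving out 1 library at a time gave 2 to 9 host genes called lower and 1137 to 5091 differentially expressed genes in place of 2884. The highest of each came without control replicate 3; the cause was not tested. Over the 14 alternatives the median of the 10 genes ran from -0.44 to -0.29, no host gene was called higher, and SOSTDC1 ran from 5.86 to 6.05. DESeq2's Wald test called 3761 genes in either direction and 9.49% of all genes lower, among them 6 host genes, with SNHG1 (adjusted p = 0.00647) in addition.

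Replicate numbers did not pair the libraries: the deviations of libraries with the same number correlated at 0.07, -0.05 and 0.04. With the replicate block 2381 genes were called, and 5.66% of all genes tested were called lower. Of the host genes 4 were called lower (SNHG7 had an adjusted p of 0.0523) and 0 higher. The median of the host genes was -0.33 and SOSTDC1 stood at 5.94. The calls of SHQ1, MAGOH, EIF4G1 and MTOR were lost with the block. Of the 24 entries of snoRNA genes within the hosts 1 passed the filter on low counts; the cause was not tested. A gene that was not called with 3 libraries a group is not shown to be equal between groups.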
